A study of Mus musculus with 12 samples.

Results

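Breast tissue is commonly classed by its hormone receptors and ERBB receptors, and 9 such genes were followed here through a set of 12 mouse mammary tumours. The genes were chosen by name, with earlier results of these data known. They were the oestrogen receptor Esr1, the progesterone receptor Pgr, the prolactin receptor Prlr, the ERBB receptors Egfr, Erbb2 and Erbb3, the EGFR ligand Areg, and the luminal transcription factors Foxa1 and Gata3. They made up 9 of the 35944 genes with a matched transcript in the tables, and the value of a gene was the sum over its transcripts, 44 transcripts for the 9 genes. All 9 passed the filter on low counts, which asked for at least 10 reads in at least 3 libraries, and Pgr passed it with exactly 3 libraries, 1 each from the ctrl, miR-183-5p and miR-222-3p groups.

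The tumours came from 4T1, a mouse mammary carcinoma line usually described as triple negative, that is, as lacking the oestrogen receptor, the progesterone receptor and amplified ERBB2. Female BALB/c mice aged 6 to 8 weeks carried 100000 of these cells under the skin of the flank. All groups received endothelial extracellular vesicles (EVs) of the MS-1 line next to the tumour, at 3 µg per injection, from day 5 and every 2 days until harvest on day 21. The groups differed in the mimic that had been electroporated into the EVs: cel-miR-67, a nematode miRNA used as control (ctrl), or miR-142-5p, miR-183-5p or, lastly, miR-222-3p, with 3 tumours each. Where 3 values are given for the miRNAs, they stand in this order. The model is limited to 1 cell line grown in the flank and not in the mammary gland, and to whole tumours in which carcinoma cells are mixed with host cells. One library was made per tumour, so that n counts tumours.

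Oestrogen and progesterone receptors are hormone-activated transcription factors, and Pgr is a classical target gene of the oestrogen receptor. FOXA1 opens chromatin for the oestrogen receptor and GATA3 maintains luminal identity. The prolactin receptor signals through JAK2 and STAT5 to milk protein genes. The ERBB receptors are tyrosine kinases that work in pairs. ERBB2 has no known ligand of its own, and ERBB3 has little kinase activity and needs a partner. AREG, amphiregulin, is made as a membrane precursor that the protease ADAM17 releases, and in the normal mammary gland it carries the oestrogen signal to EGFR.

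The miRNAs after which the mimics were named are shown first, because a miRNA recognises its targets mainly through its seed. The mature mouse sequences were taken from RefSeq (GRCm38.p6) and are written from 5′ to 3′ with the seed, bases 2 to 8, in capitals. They are the natural miRNAs and not the synthetic mimics, whose strands were designed for the study and may differ from these in length and at the 3′ end. The mouse name of miR-142-5p in that source is miR-142a-5p.
miR-142-5p (chr11:87756867-87756887, plus strand): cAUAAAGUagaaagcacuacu
miR-183-5p (chr6:30169711-30169732, minus strand): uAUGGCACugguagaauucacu
miR-222-3p (chrX:19146901-19146923, minus strand): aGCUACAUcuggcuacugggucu
The 3 seeds differ from one another.

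The 3′ UTR of the most abundant coding transcript of each of the 9 genes was searched on its own strand for the complement of each seed, which is ACTTTAT for miR-142-5p, GTGCCAT for miR-183-5p and ATGTAGC for miR-222-3p. Of 27 pairs of gene and miRNA, 8 held 1 match each. Erbb2, Erbb3 and Areg held no match. The matches in 4 genes are shown from 5′ to 3′ in the mRNA with the match in capitals, each as a stretch of 29 bases on GRCm38 that lies in the 3′ UTR.
Esr1 and miR-142-5p (chr10:5001899-5001927, plus strand): agcaacatgtgACTTTATtaaagggaaat
Esr1 and miR-222-3p (chr10:5003587-5003615, plus strand): cagacaatcttATGTAGCagagattatgc
Egfr and miR-183-5p (chr11:16913682-16913710, plus strand): atcaccaggaaGTGCCATgttgatcacag
Foxa1 and miR-142-5p (chr12:57541829-57541857, minus strand): aaaggactgttACTTTATtattgtattca
Gata3 and miR-142-5p (chr2:9858018-9858046, minus strand): atttgaggaagACTTTATtgtacctggat
The other matches lay in Prlr, with 1 for miR-142-5p, and in Pgr, with 1 for miR-222-3p and another for miR-183-5p. Such matches were common. Among 14527 tested genes with a 3′ UTR, 14.2% held the miR-142-5p match, 9.38% the miR-183-5p match and 9.48% the miR-222-3p match, and the share grew with UTR length. For Esr1, with a 3′ UTR of 4191 bases, 34.6% of 1014 genes with a UTR 0.8 to 1.2 times as long held the miR-142-5p match and 27.1% held that of miR-222-3p. A match is a description of sequence and does not show binding.

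The libraries held 20285968 to 27021401 estimated reads. The carcinoma epithelium markers Epcam, Krt8, Krt18, Krt19, Cdh1 and Cldn7 were present in every library, with a summed level of 1285 to 1893 TPM, while the 6 markers of basal or myoepithelial mammary cells summed to between 26.1 and 153.6 TPM. Of these, 3 reached 1 TPM, namely Krt14, Krt17 and Acta2, and Krt5, Trp63 and Oxtr stayed under 1 TPM throughout. The sum was lowest in miR-142-5p tumour 2 and highest in miR-222-3p tumour 3. The summed fibroblast markers were also lowest and highest in these, at 225 and 967 TPM. Which cells carried the basal or myoepithelial markers was not tested. One miR-142-5p tumour (number 3) held B lymphocyte markers at 468 TPM in sum, against 1.22 to 3.00 TPM in the other 11 libraries. In miR-183-5p tumour 3 the skeletal muscle markers summed to 342 TPM, against 13.9 to 25.7 TPM elsewhere. The 3 miR-222-3p libraries and miR-183-5p tumour 3 also stood apart by the reads of Gm28661, taken as a share of its reads and those of mt-Co2 together. The share was at most 0.324% in these 4 libraries and at least 7.13% in the other 8, so that for miR-222-3p this difference and the cargo cannot be told apart.

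The 9 genes spanned a wide range of levels. On the TPM scale, which is per unit of transcript length and allows genes to be compared, Gata3 had the highest mean level over the 12 tumours, at 43.0 TPM ± 10.4 (SD, n = 12), followed by Areg at 34.8 ± 11.04 and Erbb2 at 14.2 ± 1.47. Esr1 stood at 5.27 ± 0.889, Egfr at 3.14 ± 0.773 and Erbb3 at 2.10 ± 0.344. Foxa1 at 0.351 ± 0.125, Prlr at 0.182 ± 0.121 and Pgr at 0.0668 ± 0.0656 were the lowest. Among all 15459 tested genes, Gata3 lay at the 75.1 percentile of mean TPM, Erbb2 at 48.3, Esr1 at 31.0 and Pgr at 0.149. The ranges of Areg and Erbb2, of Erbb2 and Esr1, and of Erbb3 and Foxa1 did not overlap. Gata3 exceeded its neighbour Areg in only 8 of 12 tumours, and these levels do not differ beyond their spread. The ranges of Esr1 and Egfr overlapped, as did those of Egfr and Erbb3, although within each of the 12 tumours the order was the same.

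**Figure D1:**
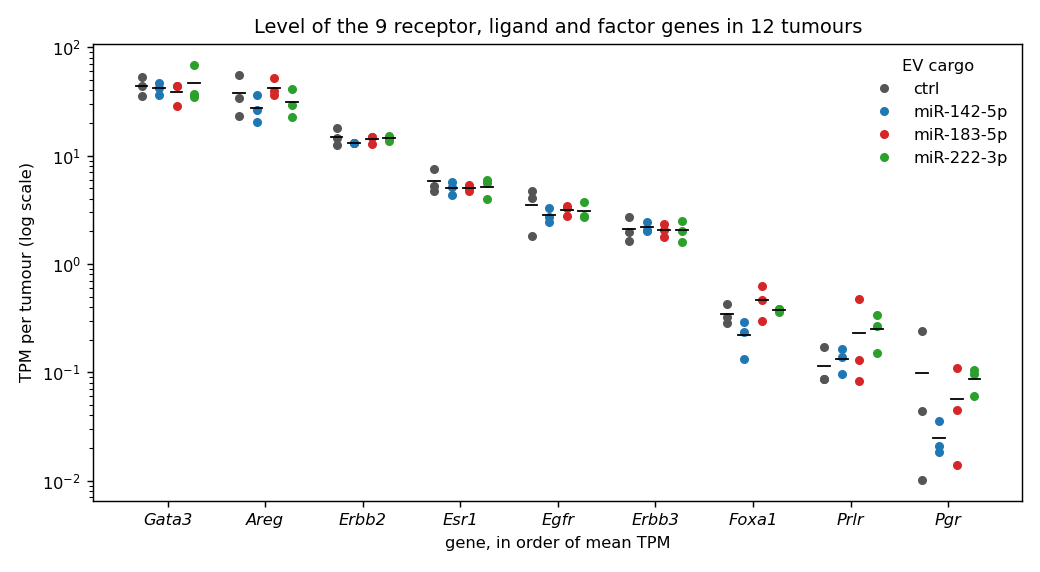
TPM of the 9 genes in each of 12 tumours on a log axis, with 1 point per tumour, coloured by EV cargo, and a bar at the mean of each group of 3. The genes stand in the order of their mean level, from Gata3 (43.0 TPM) to Pgr (0.0668 TPM). For each gene the miRNA groups overlap with ctrl. Areg, Pgr, Foxa1 and Erbb2 each have miRNA groups that do not overlap in TPM, a share not computed over all genes. In normalised counts all groups of Erbb2 overlap, as do those of Foxa1 for miR-183-5p and miR-142-5p. On that scale 6.2% to 12.3% of all tested genes do not overlap between 2 miRNA groups.

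To assess whether the cargo of the EVs was accompanied by a difference in these genes, each miRNA group was compared with ctrl over all tested genes. None of the 9 genes passed an adjusted p of 0.05 (DESeq2 Wald test, Benjamini-Hochberg adjustment) in any of the 3 comparisons, and the lowest adjusted p among the 27 values was 0.9998. The background was as low: 0.00649% of all tested genes were called with miR-142-5p, 0% with miR-183-5p and 0.026% with miR-222-3p. At an unadjusted p under 0.05, 0 of 9 genes were found in each comparison, against 3.56% of all genes with miR-142-5p, 3.22% with miR-183-5p and 2.29% with miR-222-3p. The quasi-likelihood test of edgeR also called 0 of 9 genes and found 0 of 9 at an unadjusted p under 0.05. For none of the 9 genes were the normalised counts of the 3 treated tumours all above or all below those of the 3 ctrl tumours, a pattern that 6.07%, 9.17% and 5.5% of all tested genes showed in the 3 comparisons. A likelihood ratio test across the 4 groups in DESeq2 called 0 of 9 genes, none with an unadjusted p under 0.05, with 0.0584% of all genes called.

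The 95% intervals show how far a difference could reach in this design. They were narrowest for Erbb2, where the fold change against ctrl lay between 0.744 and 1.06 with miR-142-5p, between 0.811 and 1.16 with miR-183-5p and between 0.807 and 1.15 with miR-222-3p. For Esr1 they lay between 0.678 and 1.17 in all 3 comparisons, and for Erbb3 between 0.722 and 1.41. For Foxa1, Prlr and Pgr, which rested on few reads, the intervals were wide, and for Pgr with miR-222-3p the interval ran from 0.203-fold to 3.56-fold. The 3 comparisons share the same ctrl tumours and are not independent.

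**Figure D2:**
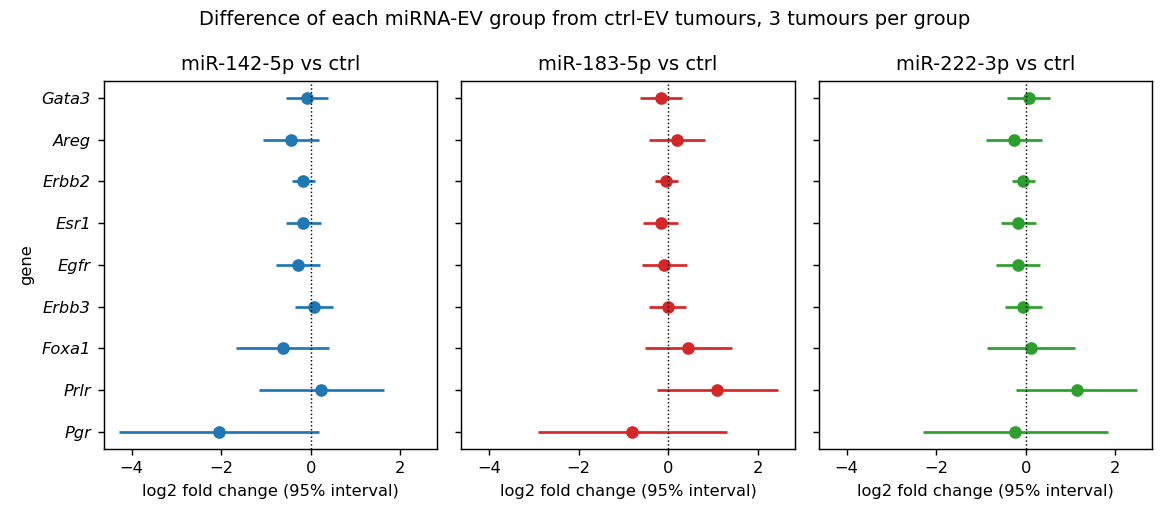
Log2 fold change of the 9 genes against ctrl (x axis) in 3 panels, 1 for each miRNA, with points for the estimate and lines for the 95% interval of the DESeq2 fit, 3 tumours per group. All 27 lines cross 0, and they are shortest for Erbb2 and longest for Pgr.

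Of the steroid hormone receptors, Esr1 (chr10:4611593-5005614, plus strand) was present in all tumours and Pgr (chr9:8899833-8968611, plus strand) was close to the limit of detection. Esr1 reached 4.72, 5.23 and 7.47 TPM in ctrl tumours 1 to 3 and 5.66, 5.12 and 4.38 TPM in the miR-142-5p tumours. It reached 4.73, 5.40 and 5.03 TPM with miR-183-5p and 5.58, 5.97 and 3.99 TPM with miR-222-3p. Ctrl tumour 3 was the highest of all and miR-222-3p tumour 3 the lowest, and the ranges of the 4 groups overlapped. The log2 fold change of Esr1 against ctrl was −0.17 (SE 0.20) with miR-142-5p and −0.16 (SE 0.20) with both other miRNAs, and without ctrl tumour 3 these came to 0.0020, 0.0059 and 0.0063. In that tumour a processed transcript, Esr1-208, took 17.3 reads and 19.1% of the Esr1 TPM. The coding transcript Esr1-204 carried 87.7% of the Esr1 TPM on average.

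Pgr was read 25.2 times in ctrl tumour 1, 4.46 times in ctrl tumour 2 and 1.006 times in ctrl tumour 3 (0.242, 0.0438 and 0.0101 TPM). It was read 2, 2.11 and 4.01 times with miR-142-5p, 1, 13.2 and 5 times with miR-183-5p, and 6.02, 9.04 and 13.3 times with miR-222-3p. Against ctrl, the log2 fold change of Pgr was −2.05 (SE 1.14) with miR-142-5p, −0.80 (SE 1.08) with miR-183-5p and −0.23 (SE 1.05) with miR-222-3p. The ctrl group alone spanned almost the whole range, and a single tumour held most of its reads, so that the depth does not allow a difference in Pgr to be detected or set aside.

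The other members of the steroid hormone pathway were described by a list of 20 receptors, coregulators and target genes, of which 16 passed the count filter. None was called against ctrl. The median log2 fold change of the list was 0.05 with miR-142-5p, −0.01 with miR-183-5p and 0.02 with miR-222-3p, beside medians of all genes between −0.011 and −0.005. The growth factor binding protein Igfbp4, at 966 TPM on average, was the highest of the list and the calcitonin receptor Calcr, at 0.0013 TPM, the lowest. The second oestrogen receptor Esr2 stood at 1.18 TPM. Of the classical oestrogen-induced genes, Greb1 stood at 0.0736 TPM and Tff1 at 0.289 TPM, both under the count filter, while the cyclin Ccnd1, which many other signals also induce, stood at 348 TPM.

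The prolactin receptor Prlr (chr15:10177238-10349180, plus strand) was low in every group. It was read 9.04, 17.2 and 7.24 times in the ctrl tumours, 9.09, 10.8 and 16.1 times with miR-142-5p, 14.1, 71.6 and 5.16 times with miR-183-5p, and 27.02, 16.03 and 40.05 times with miR-222-3p. The high value of the miR-183-5p group came from tumour 2 alone, in which the long coding transcript Prlr-202 took 64.6 reads. Prlr had log2 fold changes against ctrl of 0.24 (SE 0.71) with miR-142-5p, 1.10 (SE 0.69) with miR-183-5p and 1.14 (SE 0.69) with miR-222-3p. Without miR-183-5p tumour 2 the log2 fold change for miR-183-5p was −0.080.

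Downstream of the receptor, the kinase Jak2 had a mean level of 84.7 TPM, Stat5a of 14.2 TPM and Stat5b of 16.0 TPM. The milk proteins were scarce: Wap and Csn1s2a had 0 reads in all 12 libraries, and Csn2 had 0 reads in 10 of them. A count of 0 allows up to 3 reads, counting error only. The exception was kappa casein, Csn3, which stood between 9.76 and 64.1 TPM with its highest value in ctrl tumour 2. Of the 13 genes of the prolactin and milk list, 8 were tested and none was called against ctrl. Csn3 had an unadjusted p of 0.0159 with miR-142-5p (log2 fold change −1.15, SE 0.48, adjusted p of DESeq2 1) and of 0.00535 with miR-222-3p (−1.33, SE 0.48, adjusted p 1), and in both its groups overlapped. Between miR-183-5p and miR-142-5p, Cish, a STAT5-induced inhibitor of cytokine signalling named after its values were seen, had a log2 difference of −0.69 (SE 0.22, unadjusted p 0.00185, adjusted p of DESeq2 0.186).

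Among the ERBB receptors, Erbb2 (chr11:98412470-98437716, plus strand) was the most abundant and the least variable. Its level was 12.5, 17.8 and 14.5 TPM in the ctrl tumours, 13.0, 13.2 and 13.2 TPM with miR-142-5p, 14.8, 14.9 and 12.9 TPM with miR-183-5p and 15.3, 13.6 and 14.4 TPM with miR-222-3p. In TPM, all treated tumours lay within the range of the ctrl tumours. In normalised counts, miR-142-5p tumours 2 and 3 and miR-183-5p tumour 3 lay below that range. The highest tumour was 1.42 times the lowest in TPM, and the coefficient of variation of the normalised counts of Erbb2 was 9.31%, the smallest of the 9 genes. Its log2 fold changes against ctrl were −0.17, −0.05 and −0.05 (SE 0.13 each), and they turned positive (0.074, 0.086 and 0.14) when only protein-coding transcripts were summed. Erbb2-202, annotated as a processed transcript of 4431 bases, took between 9.33% and 31.5% of the Erbb2 TPM, and the coding Erbb2-201 took most of the rest.

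Egfr (chr11:16752203-16918158, plus strand) was 1.79, 4.04 and 4.68 TPM in the ctrl tumours, and both the lowest and the highest of the 12 values were in that group. It was 2.69, 2.44 and 3.28 TPM with miR-142-5p, 3.44, 3.27 and 2.80 TPM with miR-183-5p and 3.72, 2.72 and 2.76 TPM with miR-222-3p. Against ctrl the log2 fold changes were −0.28, −0.09 and −0.17 (SE 0.26 each). A short processed transcript of 716 bases, Egfr-204, entered these values. With 8.60 and 12.9 reads it took 27.2% and 36.1% of the Egfr TPM in ctrl tumours 2 and 3, and it had 0 reads in ctrl tumour 1 and in all miR-142-5p tumours. Over coding transcripts alone, the ctrl tumours stood at 1.79, 2.94 and 2.99 TPM, and the log2 fold changes were 0.15, 0.16 and 0.18. None of these reached an adjusted p of 0.05.

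Erbb3 (chr10:128567523-128589652, minus strand), which has a single transcript in the tables, was 1.64, 2.69 and 1.99 TPM in the ctrl tumours. It was 2.08, 2.03 and 2.47 TPM with miR-142-5p, 1.76, 2.05 and 2.34 TPM with miR-183-5p and 2.51, 2.04 and 1.60 TPM with miR-222-3p. The groups overlapped almost fully. Its log2 fold changes against ctrl were 0.07, −0.01 and −0.05 (SE 0.21 each). The fourth receptor, Erbb4, had 0 reads in 11 of 12 libraries and 1 read in the other. In whole tumours, fewer cells of a type and less RNA per cell cannot be told apart, which holds for each level given here.

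The ligand Areg (chr5:91139599-91148432, plus strand) varied more between tumours than the ERBB receptors, with a coefficient of variation of its TPM of 31.8%, against 24.6% for Egfr. It was 34.2, 55.1 and 23.4 TPM in the ctrl tumours and 22.9, 29.3 and 41.4 TPM with miR-222-3p. It was 26.6, 20.4 and 36.0 TPM with miR-142-5p and 51.6, 39.6 and 36.5 TPM with miR-183-5p. Each miR-183-5p tumour thus lay above each miR-142-5p tumour, while the ctrl tumours overlapped both groups. The log2 fold change against ctrl was −0.44 (SE 0.32) with miR-142-5p, 0.20 (SE 0.32) with miR-183-5p and −0.26 (SE 0.32) with miR-222-3p.

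The miRNA groups were next compared with one another, which asks whether the cargoes differ. None of the 9 genes was called when miR-183-5p was set against miR-142-5p (0.0519% of all genes called), with miR-183-5p against miR-222-3p (0.0324%) or with miR-142-5p against miR-222-3p (0.0389%), and edgeR also called none. At an unadjusted p under 0.05, 2 of 9 genes were found for miR-183-5p relative to miR-142-5p, where 7.95% of all genes were found, and 0 of 9 in the other 2 comparisons, beside 3.24% of all genes for miR-183-5p relative to miR-222-3p and 3.59% for miR-142-5p relative to miR-222-3p. Both of the genes found were higher with miR-183-5p, as were 3.09% of all genes. In normalised counts, 1 of the 9 genes, Areg, had groups that did not overlap for miR-183-5p and miR-142-5p, against 12.3% of all genes, and 0 of 9 did where miR-183-5p was set beside miR-222-3p, against 9.06%. For miR-142-5p and miR-222-3p there were 2 of 9, against 6.2% of all genes, and both were lower with miR-142-5p and were named after their values were seen. Pgr had a log2 difference of −1.82 (SE 1.14, unadjusted p 0.112, adjusted p of DESeq2 0.9999) and Foxa1 one of −0.75 (SE 0.52, unadjusted p 0.154, adjusted p of DESeq2 0.9999), and both rested on few reads. Pgr passed the count filter through libraries of the other groups and none of miR-142-5p. Its lower value with miR-142-5p is thus tied to the filter and is no evidence of a difference. Between miR-183-5p and miR-142-5p, Areg had a log2 difference of 0.64 (SE 0.32, 95% interval 0.01 to 1.27, unadjusted p 0.0457, adjusted p of DESeq2 0.611), and Foxa1 one of 1.07 (SE 0.52, 95% interval 0.06 to 2.08, unadjusted p 0.0378, adjusted p of DESeq2 0.572). Neither passed the correction, the Areg difference ranged from 0.47 to 0.81 when 1 tumour was left out, and edgeR gave unadjusted p values of 0.0658 for Areg and 0.0237 for Foxa1.

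Other genes around EGFR were described in the same comparison. Of the EGFR ligands, Hbegf stood at 73.7 TPM on average and Tgfa at 36.4 TPM, beside 34.8 TPM for Areg and 1.28 TPM for Egf. Nrg3, from the wider list of ERBB ligands, stood at 0.0225 TPM. Tgfa was 33.7, 29.6 and 33.2 TPM with miR-142-5p and 41.0, 43.7 and 49.3 TPM with miR-183-5p, and Hbegf was 71.8, 48.4 and 67.7 TPM and 83.7, 76.1 and 92.9 TPM, respectively. The groups overlapped in neither gene, a pattern that 12.3% of all tested genes showed in normalised counts. The log2 difference was 0.48 (SE 0.23, unadjusted p 0.0342, adjusted p of DESeq2 0.568) for Tgfa and 0.43 (SE 0.19, unadjusted p 0.0257, adjusted p 0.524) for Hbegf. The sheddase Adam17 gave 0.20 (SE 0.10, adjusted p of DESeq2 0.572) and Errfi1, an inhibitor of EGFR that EGFR signalling itself induces, gave 0.47 (SE 0.17, adjusted p 0.332). The adaptor Gab1 went the other way, with −0.36 (SE 0.18, unadjusted p 0.0484, adjusted p of DESeq2 0.625). Adam17, Errfi1 and Gab1 were singled out after their values were seen, as the genes of the feedback and adaptor list with an unadjusted p under 0.05.

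The list of ERBB ligands and Erbb4 held 11 genes, 9 of them tested, and in this comparison 7 had a positive and 2 a negative difference. The median was 0.43, beside a median of −0.0027 and a positive share of 49.5% for all genes, and none passed the correction. The 2 negative ones were the ligands Btc and Epgn, with mean normalised counts of 15.5 and 12.0 with miR-183-5p. With miR-142-5p these were 19.7 and 13.5. Egf, counted as positive, was nearly level, at 31.2 with miR-183-5p and 30.3 with miR-142-5p. Of the 16 feedback and adaptor genes, 11 were positive and 5 negative, with a median of 0.04. In that list 3 genes with a positive and 2 with a negative difference, Gab1 and Spry1, had groups that did not overlap, against 12.3% of all tested genes. Against ctrl, the same ligand list had medians of −0.02 with miR-142-5p, 0.15 with miR-183-5p and −0.04 with miR-222-3p, and 0 of 9 were called each time. One library weighed on these values: without miR-142-5p tumour 1, Errfi1 (log2 difference 0.65, adjusted p of DESeq2 0.0091), Ereg (1.94, adjusted p 0.0356) and the epithelial factor Elf3 were called, 3 of the 61 listed genes tested, and no other library left out gave a call among them. Calls over all genes rose with this library left out as well, from 8 to 415, or 2.86% of the genes tested. Without miR-142-5p tumour 3, which held the B lymphocyte markers, the Areg difference was 0.81, and without miR-183-5p tumour 3, which held the muscle markers, it was 0.74.

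Markers of some host cells, but not of all those listed, differed between these 2 groups as well. The 6 neutrophil markers summed to between 1879 and 3042 TPM with miR-183-5p and between 1019 and 1660 TPM with miR-142-5p, and the 6 macrophage markers to between 899 and 1336 TPM and between 1457 and 2122 TPM. The 6 fibroblast markers summed to between 649 and 757 TPM with miR-183-5p and between 225 and 529 TPM with miR-142-5p. All 18 of these markers reached 1 TPM. The 6 adipocyte markers, of which 5 reached 1 TPM, summed to between 87.3 and 95.8 TPM with miR-183-5p and between 53.9 and 86.0 TPM with miR-142-5p, and the 6 endothelial markers, all of which did, to between 104.1 and 128.8 TPM and between 130.9 and 151.8 TPM. In none of these 5 lists did the groups overlap, beside 12.3% of all single genes in normalised counts. In the other lists they did overlap, namely T lymphocyte, B lymphocyte, skeletal muscle, skin keratinocyte, and basal or myoepithelial cells. The carcinoma epithelium markers also overlapped, at 1463 to 1652 TPM and 1285 to 1881 TPM. The part of these cell types in the values of Areg, Tgfa and Hbegf was not tested.

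**Figure D3:**
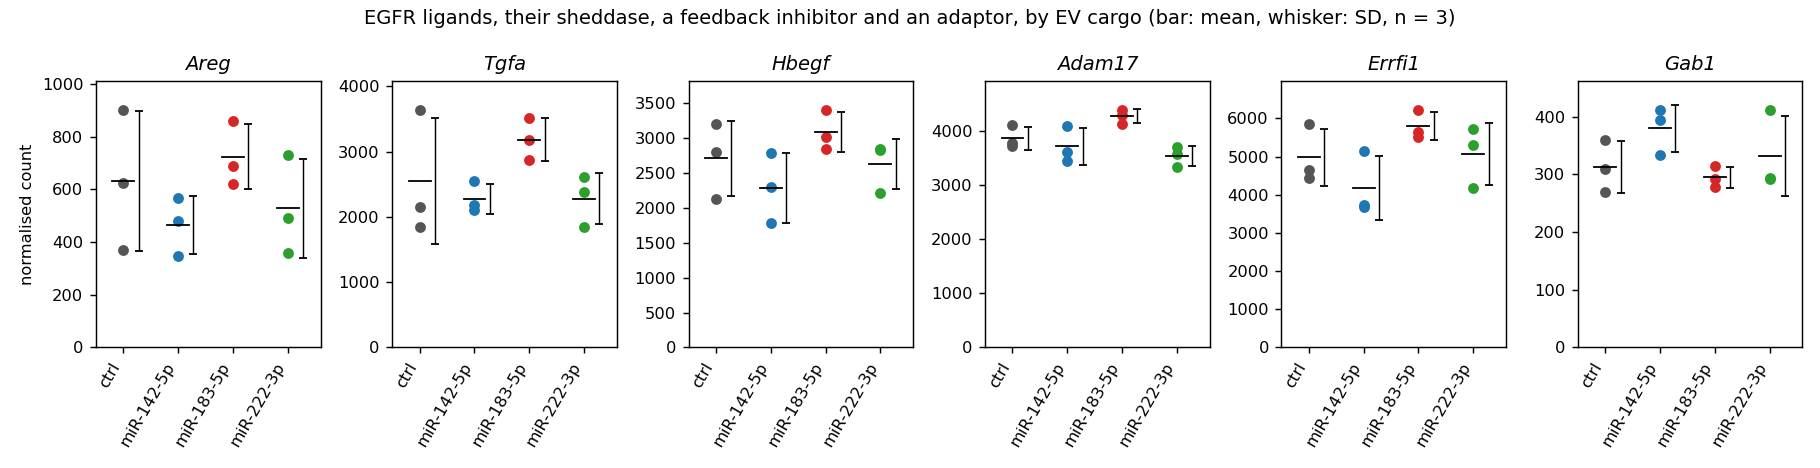
Normalised counts of Areg, Tgfa, Hbegf, Adam17, Errfi1 and Gab1 by EV cargo, with 1 point per tumour, a bar at the mean and a whisker for the SD of 3 tumours, on axes that start at 0. The miR-183-5p tumours lie above the miR-142-5p tumours in the first 5 panels and below them for Gab1, with Areg at 622 to 862 against 348 to 567. For Areg the ctrl tumours, at 369 to 904, overlap both groups. Adam17, Errfi1 and Gab1 were picked by their unadjusted p in this comparison, in which 12.3% of all tested genes had groups that did not overlap.

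Of the luminal transcription factors, Foxa1 (chr12:57540628-57546916, minus strand) was near the limit of the depth. It was read 15, 13 and 19 times in the ctrl tumours, 14, 6 and 12 times with miR-142-5p, 17, 34 and 23 times with miR-183-5p and 18, 19 and 23 times with miR-222-3p. The single lowest value was in miR-142-5p tumour 2 and the highest in miR-183-5p tumour 2. The log2 fold change against ctrl was −0.62 (SE 0.53), 0.45 (SE 0.50) and 0.13 (SE 0.50) for the 3 miRNAs. The difference between miR-183-5p and miR-142-5p given above ranged from 0.76 to 1.38 when 1 tumour of either group was left out.

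Gata3 (chr2:9857078-9890034, minus strand) was the most abundant of the 9 genes and had 1078 to 1677 reads per library. Its level was 43.9, 35.6 and 53.4 TPM in the ctrl tumours, 36.7, 42.3 and 46.5 TPM with miR-142-5p, 44.3, 43.9 and 28.9 TPM with miR-183-5p and 69.1, 36.9 and 35.1 TPM with miR-222-3p. The groups overlapped, with miR-222-3p tumour 1 far above and miR-183-5p tumour 3 below the others. Its log2 fold changes against ctrl were −0.07, −0.16 and 0.06 (SE 0.24 each), and the last was −0.26 without miR-222-3p tumour 1.

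Most of the spread of Gata3 came from transcripts that carried few reads. The coding transcript Gata3-201, of 3215 bases, took between 94.5% and 98.4% of the Gata3 reads, but between 42.2% and 76.4% of the Gata3 TPM. TPM divides reads by the effective length, which for the processed transcript Gata3-205, of 243 bases, was 82.0 bases on average. In miR-222-3p tumour 1, Gata3-205 turned 32.7 reads into 23.9 TPM, whereas Gata3-201 turned 1477 reads into 29.2 TPM. The level of Gata3-201 alone ranged from 22.1 to 30.4 TPM over the 12 tumours, with the highest 1.38 times the lowest, against 2.39 times for the gene. Over coding transcripts alone Gata3 averaged 26.6 TPM, which placed it below Areg at 34.8 TPM.

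**Figure D4:**
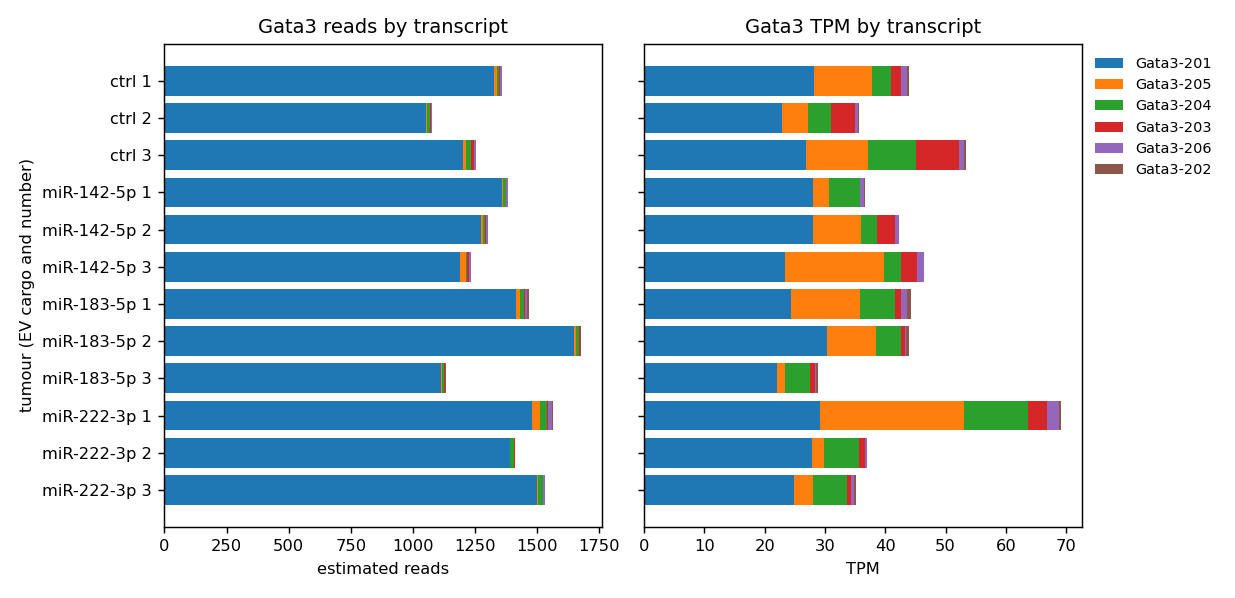
Gata3 in each of 12 tumours as stacked bars by transcript, in estimated reads on the left and in TPM on the right, both from 0. Gata3-201 fills nearly all of each bar in reads (94.5% to 98.4%), while short processed transcripts add 6.82 to 39.9 TPM on the right, most in miR-222-3p tumour 1.

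The epithelial surroundings of these factors were measured with a list of 13 luminal and epithelial genes. Krt18, a keratin of simple epithelium, was the highest at 804 TPM on average and its partner Krt8 stood at 545 TPM. The luminal factor Spdef was the lowest at 0.0544 TPM and had 0 reads in 6 libraries. Of the list, 12 genes were tested and none was called against ctrl, with medians of −0.05, −0.03 and −0.06 in the 3 comparisons.

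Lastly, genes with a pattern like that of the members over the 12 tumours were listed, among 11334 protein-coding genes with a mean normalised count of at least 100, for the 6 members that reach this count. These correlations are descriptions over tumours that share library depth and cell makeup, and were picked as the highest of many. The closest was Mx1, an antiviral GTPase induced by interferon, with Erbb3 (Pearson r = 0.957, Spearman rho = 0.951, r = 0.936 without the 2 tumours farthest from the median), followed for Erbb3 by Sp100 (r = 0.914) and Znfx1 (r = 0.912). For Egfr they were Alg10b, Cdc73 and Prkci (r = 0.939, 0.899 and 0.896), and for Areg Tomm40l, Pgd and Nelfe (r = 0.895, 0.894 and 0.891). For Gata3 they were Tmem255a, Araf and Zscan29 (r = 0.927, 0.927 and 0.910), for Erbb2 Igsf9, Dennd6b and Sema4f (r = 0.905, 0.797 and 0.797), and for Esr1 Sgsm3, Mfsd14b and Fzd6 (r = 0.891, 0.822 and 0.786). Without the 2 tumours farthest from the median the r of Erbb2 with Dennd6b was 0.540. None of the 18 genes was itself a member, and among the 6 members the highest r was 0.56, between Erbb2 and Areg.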

How the data were processed

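RNA of 12 4T1 tumours, 3 for each of 4 EV cargoes, was sequenced after selection of polyadenylated RNA with a stranded kit. The authors quantified the reads with Salmon against mouse transcripts (GRCm38 per the labels), and their methods and tables name different Ensembl releases. For 118783 transcripts the deposited tables give estimated counts, which are expected numbers of reads with decimals. The deposited TPM values are per transcript length and scaled to a fixed sum per library. The effective length is also given.

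Transcripts were matched by identifier to GENCODE M21 (116710 matched, 98.3%), and unmatched transcripts held 0.633% to 0.671% of the reads. Expected counts were summed per gene, rounded and modelled with an average length offset in DESeq2 1.42.0 (R 4.3.3), with all 12 libraries in 1 fit and the cargo as factor. A gene was tested when 3 or more libraries held 10 or more of its reads (15459 genes), with Benjamini-Hochberg adjustment at 0.05. An adjusted p was obtained for 15413 genes in each comparison of 2 groups and for 15412 across the 4 groups. Shares of all genes by p-value in this fit are over these genes, and shares without overlap are over all 15459. Alternatives were edgeR 4.0.16, TMM factors, a block for the replicate number, leaving out the length offset, fitting 2 groups alone, leaving out each tumour, dropping the count filter (24230 genes), and asking for 50 reads in all libraries (11722 genes). Protein-coding transcripts only, and 8 libraries set apart by Gm28661, were added after the data were seen. The fits were tested on simulated data. Replicate libraries were compared by chi-square per degree of freedom, which lay between 14.2 and 62.4 over the 12 pairs within groups, so no library was a copy of another of its group. Pairs across groups were not compared. The labels do not say whether tumours of a group came from separate experiments, and p-values measure the spread between these tumours.

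The members and gene lists were chosen with earlier results of these data known. All 9 members were named against ctrl and, between miRNA groups, those with an unadjusted p under 0.05. Listed genes were named where they passed the threshold, had the highest or lowest mean TPM of their list or were partners of a member, and a few others were named to complete a pathway after their values were seen. The level of 1 listed gene is not reported here. Likeness took the 3 genes with the highest Pearson r of log2(normalised count + 1) for each member. Intervals cover the spread between tumours, and floors of 3 reads cover counting error only. Tables were handled in Python 3.11.15 with numpy 2.4.6 and pandas 2.3.3, and drawn with matplotlib 3.10.9.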

Additional observations from a re-analysis of the deposited data

How the results depend on the processing

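None of the 9 genes was called in any comparison under any alternative run, and the lowest adjusted p of a member under any of them was 0.173 (Areg, miR-183-5p against miR-142-5p, only these groups compared). Protein-coding transcripts only were fitted just for the comparisons against ctrl. The 8 libraries with Gm28661 reads were fitted just for miR-142-5p and miR-183-5p against ctrl. Comparisons between miRNA groups were not run under these settings. Of 29 log2 values followed through 405 alternatives, 35 changed sign. With protein-coding transcripts only, the log2 fold changes against ctrl of Erbb2 (0.074 with miR-142-5p, 0.086 with miR-183-5p, 0.14 with miR-222-3p), Egfr (0.15, 0.16 and 0.18) and Gata3 (0.027 with miR-142-5p) were positive, and 7 of 9 members kept their rank by level, since Areg then stood above Gata3. Without the length offset those of Egfr were 0.091 with miR-183-5p and 0.12 with miR-222-3p, and that of Gata3 was 0.028 with miR-142-5p. In the 8 libraries with Gm28661 reads, Erbb2 gave 0.019 and Gata3 0.017 with miR-183-5p. With 1 tumour left out, ranges that crossed 0 were, with miR-142-5p, Esr1 −0.31 to 0.0020, Erbb3 −0.026 to 0.27 and Gata3 −0.22 to 0.027. With miR-183-5p they were Esr1 −0.24 to 0.0059, Prlr −0.080 to 1.48, Erbb2 −0.11 to 0.082, Erbb3 −0.12 to 0.18, Egfr −0.37 to 0.13, Areg −0.076 to 0.54 and Gata3 −0.31 to 0.016. With miR-222-3p they were Esr1 −0.29 to 0.0063, Erbb2 −0.11 to 0.077, Erbb3 −0.17 to 0.14, Egfr −0.46 to 0.049, Areg −0.57 to 0.088, Foxa1 −0.0057 to 0.26 and Gata3 −0.26 to 0.20. For the left-out tumours the cause was not tested.

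The median correlation of residuals between groups was −0.147 for tumours of the same replicate number and 0.0721 for others. Of 18 same-numbered pairs, 6 lay over 0.1. Residuals were taken from group means of 3 tumours, which ties these correlations together, so they cannot show whether the numbers pair the tumours. With the replicate number as a block, 0 of 9 members were called in each comparison and no log2 value changed sign. Over all genes the block called 1 gene with miR-183-5p against ctrl and 9 with miR-183-5p against miR-222-3p, where 0 and 5 were called without it. The filter of 50 reads in every library removed Pgr, Prlr and Foxa1, which then had no value. The depth limits Pgr, Prlr and Foxa1, with at most 25.2, 71.6 and 34 reads in a library.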
